A study of Mus musculus with 20 samples.

Results

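In wild-type AML-12 hepatocytes given palmitate, genes of cell division, of the amino acid response and of lipid metabolism rose, and genes of the actin cytoskeleton fell. AML-12 is an immortalised line of mouse hepatocytes, derived from the liver of a mouse carrying a human TGF-alpha transgene. The wild-type comparison took 10 of the 20 RNA-seq libraries of the study, 5 of untreated cells and 5 of cells kept for 24 h in 125 µM palmitate, carried by bovine serum albumin. The other 10 libraries came from Ripk3-/- cells of the same line, untreated or given palmitate in the same way, and serve here only as a comparison. All groups share the AML-12 background, and no group is described as given albumin alone, so an effect of palmitate cannot be told apart from one of its carrier. Nothing in the labels ties the 5 libraries of a group to separate cultures, and p-values therefore rest on a spread that may be technical.

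Palmitate is a saturated fatty acid that hepatocytes take up, activate to its acyl-CoA, burn in mitochondria, desaturate and store as triglyceride. Fatty acids and their derivatives are ligands of the receptor PPAR alpha, which drives genes of fat burning and ketone synthesis. Excess saturated fat is also a known trigger of the integrated stress response, in which the factor ATF4 raises genes of amino acid import and synthesis. Serum response factor (SRF) keeps genes of actin filaments on when monomeric actin is scarce, and YAP with its TEAD partners acts on an overlapping set of genes. Genes of mitosis are transcribed late in the cell cycle, many of them through a promoter element called CHR that the DREAM and MuvB complexes bind.

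Each wild-type library held 21.3 to 30.1 M reads, and the 2174 genes of the authors' table for the comparison held 26.9% to 27.3% of them. To be in that table, a gene had to reach an adjusted p under 0.05 in the authors' own test of 13764 genes, which 8.86% did as higher and 6.93% as lower with palmitate. Levels are read counts normalised by the authors, given for replicates 1 to 5 in that order or as mean ± SD over 5 libraries, and positions are those of the authors' tables on mm10. A gene is said to have risen or fallen, or to be called, when edgeR's quasi-likelihood test gave an adjusted p under 0.05, with the adjustment made over all 13764 genes. The plasma protein genes with values, 24 of 58, stood at a summed 2264 to 2503 FPKM in untreated libraries. With palmitate they stood at 2193 to 2249.5 FPKM, again led by C3 and Ttr. Members differed widely without palmitate. Ambp, Hpx and Rbp4 stood at 292, 145 and 100 FPKM, but Apoh, Fga and Fgb at 1.35, 1.02 and 0.378 FPKM. The cell type is that of the labels, and these levels do not settle it. Alb, the gene of serum albumin, stood at only 3.49 FPKM without palmitate, against 429 FPKM for Ttr, the gene of transthyretin.

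Of the genes tested, 2016 were called, 1156 higher and 860 lower with palmitate. That is a background of 14.6% in either direction, 8.4% higher and 6.25% lower, against which the counts for gene groups below can be read. Most changes were small. The median log2 fold change was 0.31 among genes called higher and -0.17 among genes called lower, and 130 of the former but only 7 of the latter changed at least 2-fold. The split depended on the scaling, with 57.3% of calls higher under the authors' size factors, 44.2% under TMM over the table's genes, 42.0% under DESeq2 size factors over them and 62.4% under TMM over genes listed in both comparisons of genotype. The TMM and DESeq2 factors over the table's genes are called the table scalings below. Both were computed on genes all listed as changed, so they may take part of the response itself for a difference in scale. The alternatives moved all log2 fold changes by -0.0519, -0.0656 and 0.0090 in that order, which matters for genes of small change. Among the listed genes, the 2 groups of libraries did not overlap in 1523, or 70.1%. All listed genes had passed the authors' test on these same libraries, which favours such a gap. A further 1770 genes have wild-type counts in other tables of the authors but were not listed for palmitate. Under the authors' size factors their median log2 fold change was -0.013, and 90% of them lay between -0.18 and 0.21.

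**Figure D1:**
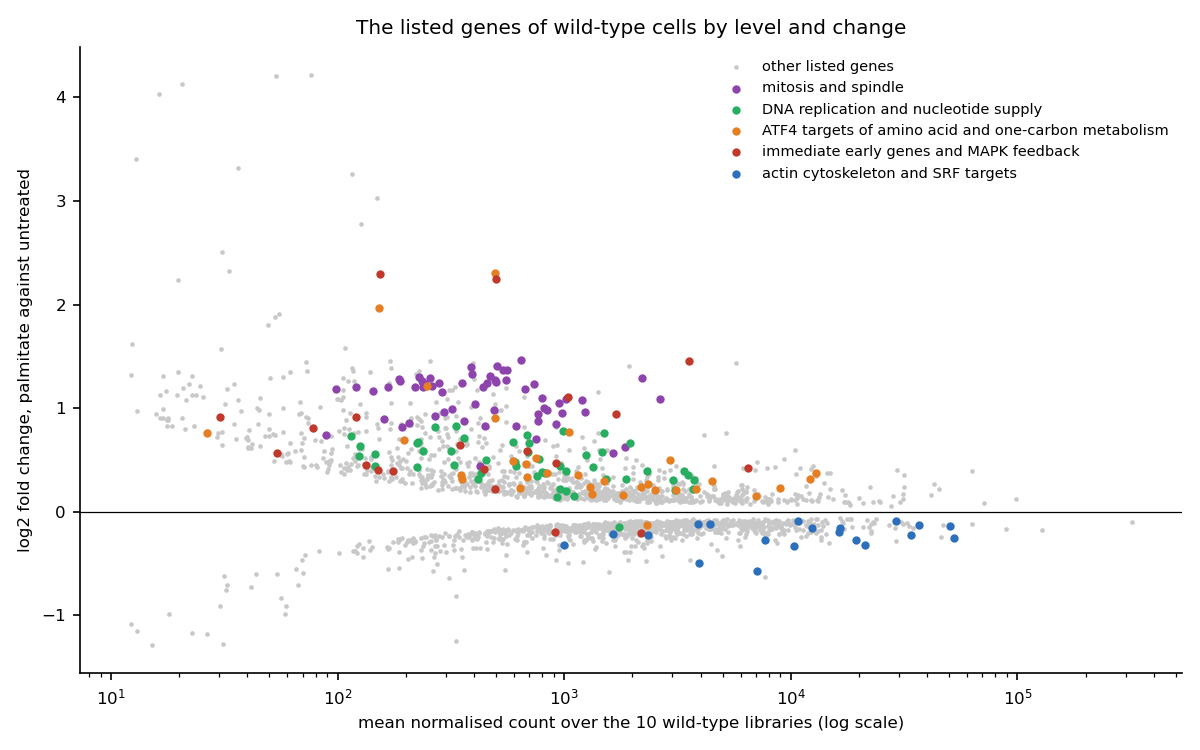
Log2 fold change with palmitate (vertical axis, edgeR) against the mean normalised count over the 10 wild-type libraries (horizontal axis, log scale) for the 2174 listed genes, with the members of 5 gene lists in colour. Mitosis genes form a band near a log2 fold change of 1.18, while the actin genes lie below 0 among the most abundant genes.

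Counts for 41 lists of genes with a shared role, 1379 genes in all, set the order of what follows. In a list, a member that is not among the authors' listed genes may have been unchanged, or too low to test, and is counted as a member all the same. Medians over a list cover the listed members only, all of which had passed the authors' test, so they describe those members and not the list. Over all 2174 listed genes the median log2 fold change was 0.12.

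**Figure D2:**
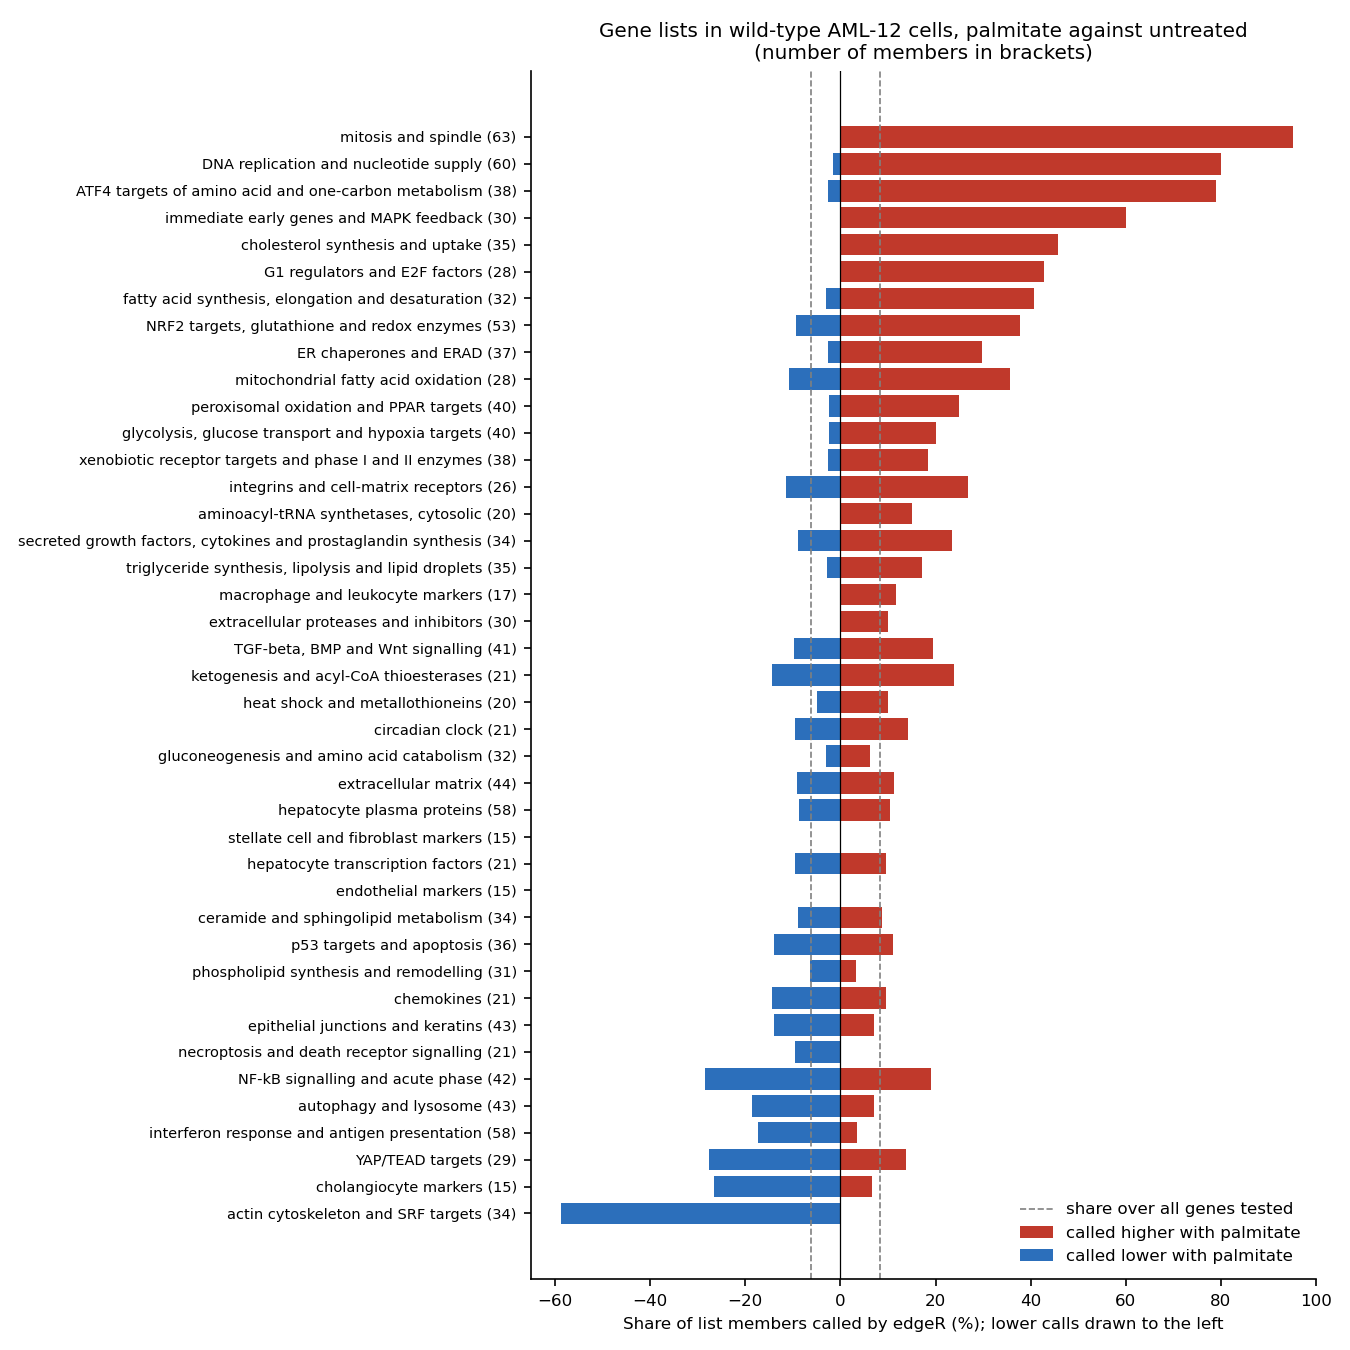
Share of each list's members called higher (red, to the right) or lower (blue, to the left) by edgeR, with the number of members in brackets and dashed lines at the shares over all genes tested, 8.4% and 6.25%. Mitosis, replication and ATF4 lists stand at the top with most of their members called higher, and the actin and SRF list at the bottom with 20 of 34 members called lower.

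Mitosis genes rose together in wild-type cells given palmitate, most of them by more than 2-fold. Of the 63 genes of mitosis and the spindle, 60 rose, none fell and 3 were not listed, with a median log2 fold change of 1.18 over the 60. The groups did not overlap in 59 of the 60, against 70.1% of all listed genes. The members run from the kinases that start and time division to the motors and kinetochore proteins that move chromosomes. Whether more cells were dividing or each dividing cell held more of these RNAs cannot be told apart in bulk RNA. The promoters of the 3 risen members of largest change that hold a CHR are shown because the list moved as a block; they run from 250 bases before to 50 after the gene's start, 5′ to 3′ along the gene, in RefSeq on GRCm38.p6. Capitals mark the CHR letters TTTGAA and every CCAAT box, on either strand.
Cenpf (chr1:189688037-189688336, minus strand): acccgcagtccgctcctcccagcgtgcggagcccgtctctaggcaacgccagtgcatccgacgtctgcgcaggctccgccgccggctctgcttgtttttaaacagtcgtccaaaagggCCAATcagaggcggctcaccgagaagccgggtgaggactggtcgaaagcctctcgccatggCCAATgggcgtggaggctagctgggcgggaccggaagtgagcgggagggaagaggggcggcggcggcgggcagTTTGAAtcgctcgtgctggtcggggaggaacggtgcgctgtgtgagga
Hmmr (chr11:40733388-40733687, minus strand): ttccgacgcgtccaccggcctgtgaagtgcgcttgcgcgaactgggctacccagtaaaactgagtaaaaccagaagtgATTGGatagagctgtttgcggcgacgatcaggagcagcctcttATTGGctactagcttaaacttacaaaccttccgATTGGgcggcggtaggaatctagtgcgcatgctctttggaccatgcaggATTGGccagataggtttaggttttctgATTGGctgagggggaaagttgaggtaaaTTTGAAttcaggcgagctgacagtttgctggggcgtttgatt
Aspm (chr1:139454523-139454822, plus strand): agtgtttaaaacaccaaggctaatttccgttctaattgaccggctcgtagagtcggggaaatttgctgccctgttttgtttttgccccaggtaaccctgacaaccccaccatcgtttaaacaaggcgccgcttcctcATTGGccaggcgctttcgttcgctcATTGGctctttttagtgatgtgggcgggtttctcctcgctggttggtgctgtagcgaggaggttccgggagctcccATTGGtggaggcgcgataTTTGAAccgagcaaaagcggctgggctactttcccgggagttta
In each of the 3, the CHR lies just past the start, at 2, 8 and 6 bases after it for Cenpf, Hmmr and Aspm, and each has several CCAAT letters before it, 2, 5 and 3 in that order. Over the 51 risen mitosis genes with a promoter in RefSeq, 72.5% held the CHR letters, against 20.2% of the 27025 genes of the promoter table. Here and for the lists below, such an excess can come from what a list was made of. It is not a result of palmitate.

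Cenpf, a kinetochore protein (ENSMUSG00000026605, chromosome 1, 189640606 to 189688086), had the largest change of the mitosis list. Its normalised count was 356, 324, 261, 417 and 365 in the untreated libraries and 860.2, 946, 941, 992 and 1005 with palmitate (log2 fold change 1.46 with SE 0.09, edgeR adjusted p = 5.8e-09). Every palmitate library was above every untreated one, and untreated replicate 4 was the highest and replicate 3 the lowest of the untreated group. Cyclin B1, the partner of the kinase that starts mitosis, is the product of Ccnb1 (ENSMUSG00000041431, chromosome 13, 100778650 to 100786570). Ccnb1 stood at 299, 265, 272, 396 and 324 without palmitate and at 775, 838, 772, 794 and 833 with it (log2 fold change 1.37 with SE 0.08, edgeR adjusted p = 5.8e-09). Here too the groups were apart, and untreated replicate 4 was again the highest of its group. Mki67, which encodes the proliferation marker Ki-67, went from 1274 ± 168 to 3124 ± 248 (log2 fold change 1.30 with SE 0.08, edgeR adjusted p = 5.06e-08). Top2a, the topoisomerase that untangles chromosomes before division, went from 1698 ± 257 to 3605 ± 232 (log2 fold change 1.09 with SE 0.09, edgeR adjusted p = 1.7e-06). Cdc20, which sets off anaphase, had a log2 fold change of 1.27 (SE 0.08), and Aurkb, the kinase of the chromosomal passenger complex, one of 1.20 (SE 0.10). Cdk1, the mitotic kinase itself, rose by 0.88 (SE 0.08) on the log2 scale, and Aurka, a kinase of the spindle poles, by 0.87 (SE 0.07).

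**Figure D3:**
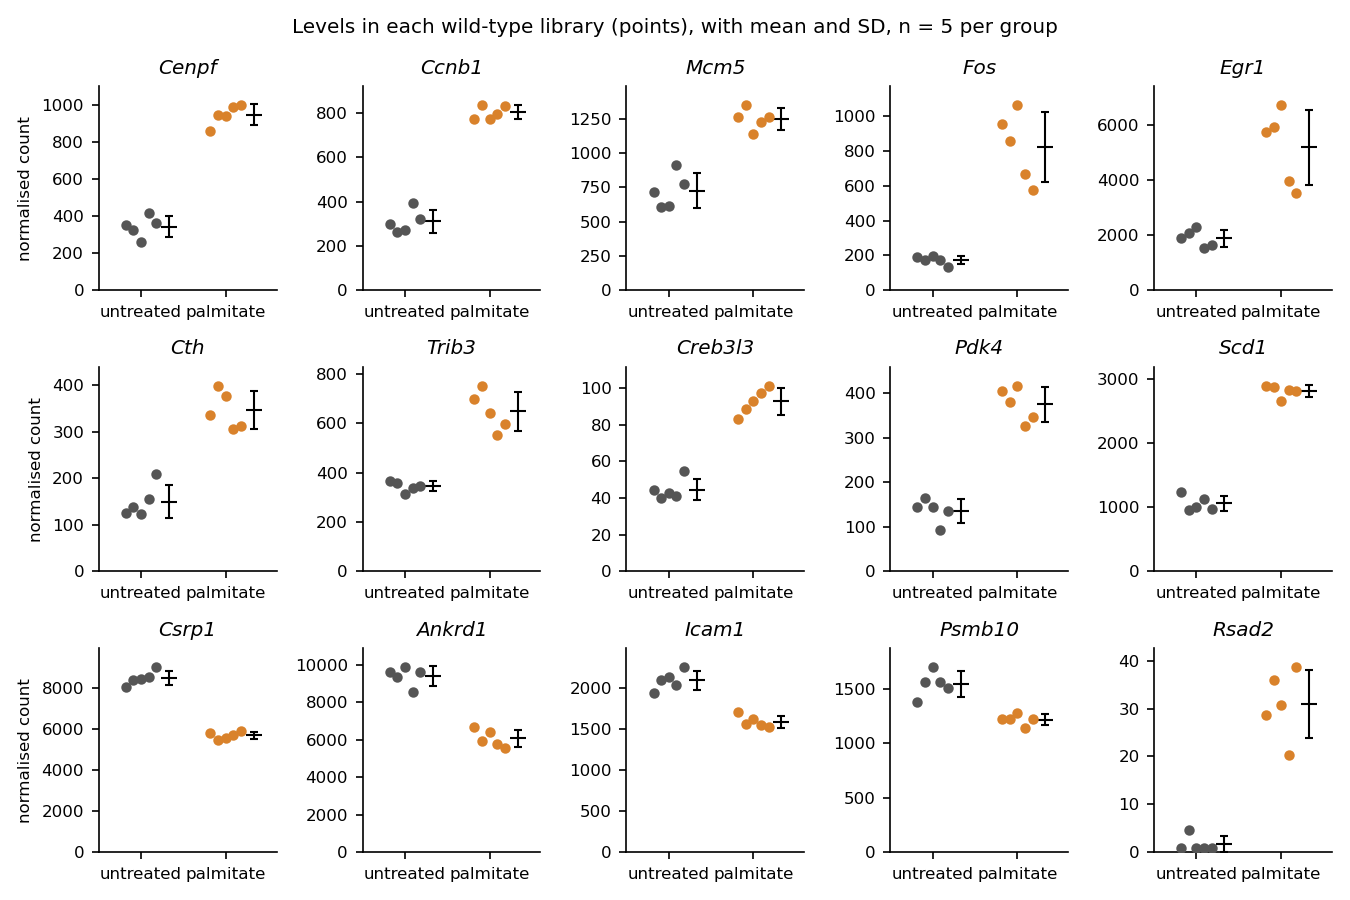
Normalised count of 15 genes in each wild-type library, untreated (grey) and with palmitate (orange), with the group mean and SD beside the points (n = 5 per group) and axes from 0. In each panel the groups do not overlap; the first 10 genes and Rsad2 are higher with palmitate, while Csrp1, Ankrd1, Icam1 and Psmb10 are lower.

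Genes that copy DNA rose too, with a median change below that of the mitosis genes. Of 60 genes of DNA replication and nucleotide supply, 48 rose, 1 fell and 11 were not listed, with a median log2 fold change of 0.44 over the listed members. The groups did not overlap in 43 of them, against 70.1% of all listed genes. Mcm5, a subunit of the helicase that opens replication origins (ENSMUSG00000005410, chromosome 8, 75109569 to 75128439), stood at 716, 609, 613, 915 and 771 without palmitate and 1261, 1352, 1137, 1221 and 1258 with it (log2 fold change 0.78 with SE 0.09, edgeR adjusted p = 3.65e-05). Its groups were apart, and the untreated group spread widely, from replicate 2 at the bottom to replicate 4 at the top. All 6 subunits of that helicase rose, Mcm2 by 0.35, Mcm3 by 0.66, Mcm4 by 0.44, Mcm6 by 0.31 and Mcm7 by 0.30 on the log2 scale. Cdc6, which loads the helicase, rose from 240.2 ± 52.4 to 426 ± 43.5 (log2 fold change 0.83 with SE 0.12, edgeR adjusted p = 8.81e-05), and Mcm10, which helps to start the fork, had a log2 fold change of 0.82 (SE 0.12). Rrm2, the inducible subunit of the enzyme that makes deoxynucleotides, went from 1111, 1022, 1003, 1286 and 1156 in the untreated libraries to 1921, 1873, 1841, 1878 and 1902 with palmitate (log2 fold change 0.76 with SE 0.05, edgeR adjusted p = 2.45e-08). Tyms, which makes thymidylate, had a log2 fold change of 0.58 (SE 0.06), and Pole, the leading-strand polymerase, one of 0.74 (SE 0.11). Pcna, the sliding clamp, changed by 0.21 (SE 0.04), and its groups overlapped. The member that fell was Ppat, the first enzyme of purine synthesis, named here after its values were seen (log2 fold change -0.14 with SE 0.04, edgeR adjusted p = 0.0106).

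Regulators of the G1 phase rose too, though fewer of them. Of 28 G1 regulators and E2F factors, 12 rose, none fell, 1 was listed without being called and 15 were not listed, with a median of 0.47 over the listed members. Ccnd1, cyclin D1, the G1 cyclin that answers to growth signals (ENSMUSG00000070348, chromosome 7, 144929931 to 144939925), stood at 7555, 7564, 7108, 8567 and 7923 without palmitate and at 11343, 10995, 11107, 10669.8 and 10848 with it (log2 fold change 0.51 with SE 0.04, edgeR adjusted p = 6.72e-08). The groups were far apart relative to their spread. Ccne1, cyclin E1, rose from 142 ± 31.0 to 229.9 ± 23.2 (log2 fold change 0.70 with SE 0.12, edgeR adjusted p = 0.000635). Among the E2F factors, the repressors E2f8 and E2f7 had log2 fold changes of 0.92 (SE 0.11) and 0.80 (SE 0.13), and the activators E2f2 and E2f1 of 0.78 (SE 0.20) and 0.37 (SE 0.06). Cdkn2d, an inhibitor of the cyclin D kinases, also rose, by 0.50 (SE 0.09). The motif TTTCCCGC of E2F sites was found, on either strand, in 14.6% of 41 promoters of called replication genes and in 1.24% of all genes of the promoter table. It was also found in 11.8% of 17 promoters of actin genes, which fell.

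Immediate early genes, which answer within minutes to growth factor and stress kinases, were higher after 24 h of palmitate. Of 30 immediate early genes and feedback inhibitors of MAPK signalling, 18 rose, none was called lower, 2 were listed without being called and 10 were not listed. The median was 0.58 over the listed members, and the groups did not overlap in 17 of them, against 70.1% of all listed genes. Under either table scaling, 16 were called higher and 2 lower. Fos, a subunit of the AP-1 factor (ENSMUSG00000021250, chromosome 12, 85473890 to 85477273), went from 189.9, 172, 196, 175 and 135 to 952, 857, 1064, 667 and 575 (log2 fold change 2.25 with SE 0.17, edgeR adjusted p = 6.14e-07). Palmitate replicates 4 and 5 were the lowest of their group for Fos, yet both lay far above the untreated libraries. Fosb, a close relative of Fos, stood at 54.3, 51.2, 65.9, 40.1 and 48.4 without palmitate and 296, 319.9, 329.5, 154 and 182 with it (log2 fold change 2.30 with SE 0.23, edgeR adjusted p = 6.87e-06), and replicates 4 and 5 were again lowest. Egr1, a zinc finger factor, went from 1896, 2082, 2309, 1527 and 1633 to 5769.7, 5945, 6747, 3968 and 3554 (log2 fold change 1.46 with SE 0.21, edgeR adjusted p = 0.00161), with the same replicates at the bottom in both groups. Dusp4 and Dusp6, phosphatases that switch off the ERK kinases, had log2 fold changes of 1.11 (SE 0.10) and 0.47 (SE 0.06). Ier2 and Klf4, both transcriptional regulators of the early response, rose by 0.94 (SE 0.06) and 0.91 (SE 0.12). Jun, the usual partner of Fos, was not listed and had a log2 fold change of 0.00, and Myc was not among the genes with wild-type counts.

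Genes of the amino acid response rose in most of the list. Of 38 ATF4 targets of amino acid and one-carbon metabolism, 30 rose, 1 fell, 1 was listed without being called and 6 were not listed, with a median of 0.32 over the listed members. The largest rises were in the import of cystine, in mitochondrial one-carbon metabolism and in cysteine synthesis. Promoters that hold the ATF4 amino acid response element, TGATGNAA on either strand, are shown for the risen members of largest change that have it, with the element in capitals, on the same build and window as above.
Slc7a11 (chr3:50443564-50443863, minus strand): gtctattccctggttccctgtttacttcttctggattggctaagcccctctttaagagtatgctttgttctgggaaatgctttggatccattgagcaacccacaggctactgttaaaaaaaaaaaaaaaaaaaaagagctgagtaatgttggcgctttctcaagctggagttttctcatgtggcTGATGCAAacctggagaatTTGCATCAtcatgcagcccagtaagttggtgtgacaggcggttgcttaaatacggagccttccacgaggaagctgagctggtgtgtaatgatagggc
Trib3 (chr2:152344011-152344310, minus strand): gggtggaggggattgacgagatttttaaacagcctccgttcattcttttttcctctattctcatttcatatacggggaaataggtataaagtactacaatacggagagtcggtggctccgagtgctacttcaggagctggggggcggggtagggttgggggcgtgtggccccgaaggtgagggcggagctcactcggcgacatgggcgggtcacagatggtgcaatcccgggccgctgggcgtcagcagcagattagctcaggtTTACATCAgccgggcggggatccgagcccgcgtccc
Slc7a11 carries 2 copies of the element in opposite directions, the first beginning 66 bases before the start, and Trib3 has 1 copy 14 bases after it. The element was found in 36.0% of the 25 promoters of called members and in 4.51% of all genes of the promoter table. The list holds known ATF4 targets, so this excess can follow from its make-up alone. Of 6 promoters of called triglyceride and lipid droplet genes, 50% held the element too.

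Slc7a11, the cystine importer (ENSMUSG00000027737, chromosome 3, 49892526 to 50443614), stood at 169, 169, 128, 177 and 189.6 in untreated libraries and at 801, 968, 796, 743 and 806 with palmitate (log2 fold change 2.30 with SE 0.09, edgeR adjusted p = 6.61e-11). All palmitate libraries were several times above the untreated ones. Cth, which makes cysteine from cystathionine (ENSMUSG00000028179, chromosome 3, 157894248 to 157925077), went from 125, 137, 124, 155 and 209 to 336, 399, 376, 306 and 312 (log2 fold change 1.21 with SE 0.13, edgeR adjusted p = 2.32e-06). Untreated replicate 5 was the highest of its group, and still below every palmitate library. Aldh1l2, an enzyme of mitochondrial folate, rose from 62.0 ± 8.88 to 243 ± 8.32 (log2 fold change 1.97 with SE 0.10, edgeR adjusted p = 1.32e-09). Trib3, a pseudokinase that restrains ATF4, stood at 366, 359, 313, 339.7 and 347 without palmitate and 699.7, 753, 642, 551 and 596 with it (log2 fold change 0.91 with SE 0.08, edgeR adjusted p = 2.73e-07), with replicate 4 the lowest of the palmitate group. Ddit3, the factor CHOP that lies downstream of ATF4, rose from 495 ± 55.7 to 697 ± 30.9 (log2 fold change 0.49 with SE 0.07, edgeR adjusted p = 4.67e-05). Ppp1r15a, the subunit that reverses the phosphorylation of eIF2 alpha, had a log2 fold change of 0.77 (SE 0.10), and Slc7a3, a carrier of cationic amino acids, one of 0.76 (SE 0.21) that was not called without palmitate replicate 2. Asns, asparagine synthetase and a classic ATF4 target, changed by only 0.22 (SE 0.04), and Atf4 itself by 0.15 (SE 0.03), a call lost under DESeq2 size factors over the table. Atf3 and Chac1, a factor and a glutathione-degrading enzyme downstream of ATF4, were called at 0.33 and 0.32, but each lost the call in 6 of the 10 fits that left out a library and under both table scalings. Most cytosolic aminoacyl-tRNA synthetases, which charge tRNAs, were not called: 3 of 20 rose, led by Wars (log2 fold change 0.34 with SE 0.03, edgeR adjusted p = 8.3e-07), and only 1 remained a call under either table scaling.

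ER chaperones rose by small amounts. Of 37 genes of ER folding and degradation, 11 rose, 1 fell and 25 were not listed, with a median of 0.13, and 5 were called higher under either table scaling. Hspa5, the chaperone BiP that holds the unfolded protein sensors silent (ENSMUSG00000026864, chromosome 2, 34771970 to 34777547), stood at 19660.0, 20917, 21082, 19941 and 20846 without palmitate and 24379, 25112, 24634, 23361 and 23608 with it (log2 fold change 0.24 with SE 0.03, edgeR adjusted p = 1.03e-05). The groups did not overlap, although the change was small. Creld2 and Hyou1, both raised by ER stress, had log2 fold changes of 0.39 (SE 0.05) and 0.22 (SE 0.03), and Ero1lb, an oxidase of disulfide formation, one of 0.39 (SE 0.09). Eif2ak3, the gene of the sensor kinase PERK, fell from 2829 ± 40.6 to 2508 ± 42.6 (log2 fold change -0.17 with SE 0.03, edgeR adjusted p = 0.000167). Xbp1, Herpud1 and Dnajb9, targets of the other sensors, were not among the listed genes.

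**Figure D4:**
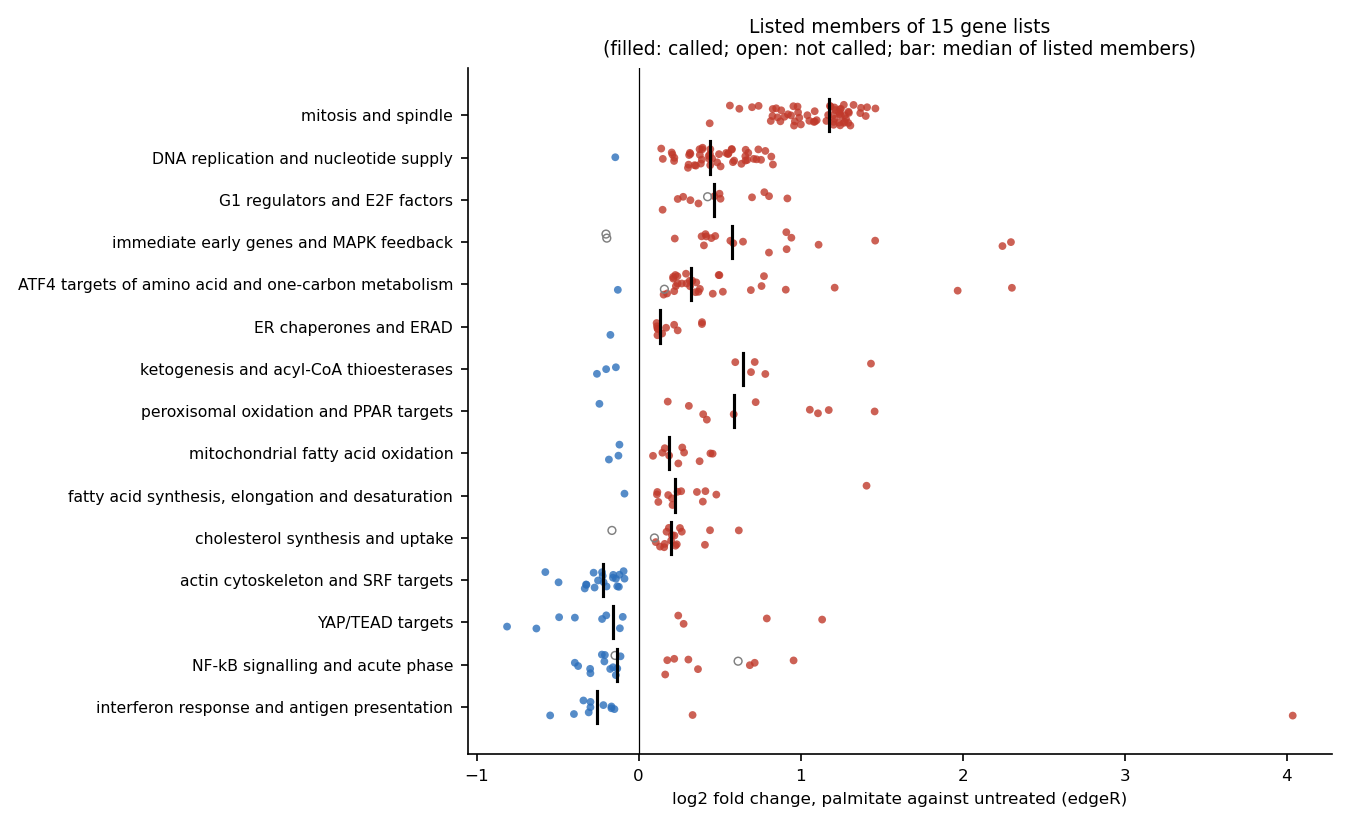
Log2 fold change with palmitate (horizontal axis, edgeR) of the listed members of 15 lists, with 1 point per gene, filled where called (red higher, blue lower) and open where not, and a bar at the median of the listed members. The mitosis list gathers around its median of 1.18, the ATF4 and immediate early lists have long tails to the right, and the actin list lies wholly below 0.

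Several genes of the ketone synthesis and PPAR alpha lists rose, among them thioesterases and Pdk4. Of 21 genes of ketogenesis and acyl-CoA thioesterases, 5 rose, 3 fell and 13 were not listed. The thioesterases Acot1, Acot2 and Acot4, which split acyl-CoAs, had log2 fold changes of 0.60 (SE 0.04), 0.72 (SE 0.06) and 0.69 (SE 0.12). They are close copies of each other, so reads may be shared between them. Slc16a6, whose zebrafish counterpart exports ketone bodies from hepatocytes, had one of 0.78 (SE 0.12). Bdh1, an enzyme of ketone synthesis, was not listed.

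Of 40 genes of peroxisomal oxidation and other PPAR targets, 10 rose, 1 fell and 29 were not listed, with a median of 0.59 over the listed members. Pdk4, the kinase that shuts pyruvate out of mitochondrial oxidation when fat is burnt (ENSMUSG00000019577, chromosome 6, 5483351 to 5496309), went from 144, 165, 145, 92.2 and 136 to 406, 382, 418, 327 and 346 (log2 fold change 1.46 with SE 0.12, edgeR adjusted p = 1.18e-07). Palmitate replicates 4 and 5 were the lowest of their group, and untreated replicate 4 the lowest of all. Creb3l3, a membrane-bound factor that works with PPAR alpha in the liver, stood at 44.3, 39.8, 42.6, 41.1 and 54.4 without palmitate and 82.9, 88.5, 92.9, 97.4 and 101 with it (log2 fold change 1.06 with SE 0.12, edgeR adjusted p = 9.19e-06). Angptl4, a secreted inhibitor of lipoprotein lipase, rose from 2655 ± 165 to 3292 ± 111 (log2 fold change 0.31 with SE 0.04, edgeR adjusted p = 2.32e-05). Cyp4a12a, a fatty acid omega-hydroxylase with near-identical copies, had a log2 fold change of 1.17 (SE 0.11), and Vnn1, a pantetheinase, one of 0.59 (SE 0.05). Ppara itself fell from 405 ± 29.6 to 342 ± 16.4 (log2 fold change -0.24 with SE 0.07, edgeR adjusted p = 0.0186); it is named after its values were seen, as the 1 member that fell. Cyp4a10, Cd36 and Fabp1, common markers of PPAR alpha action, were not listed.

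Genes that bring fatty acids into mitochondria rose, as did some of the oxidation cycle. Of 28 genes, 10 rose, 3 fell and 15 were not listed, and 7 were called higher under either table scaling. Cpt1a, which carries acyl groups into mitochondria and sets the pace of oxidation (ENSMUSG00000024900, chromosome 19, 3323301 to 3385732), stood at 13246, 13976, 12691, 12146 and 12751 without palmitate and 15784, 17162, 17123, 16999 and 17074 with it (log2 fold change 0.38 with SE 0.04, edgeR adjusted p = 6.56e-07). Slc25a20, the carnitine carrier that acts next, rose from 1083 ± 43.3 to 1283 ± 59.4 (log2 fold change 0.25 with SE 0.04, edgeR adjusted p = 0.000441). The acyl-CoA synthetases Acsl1, Acsl4 and Acsl3, which activate fatty acids, had log2 fold changes of 0.46 (SE 0.05), 0.44 (SE 0.03) and 0.27 (SE 0.03). Of the enzymes of the cycle itself, Hadha and Acaa2 changed by 0.15 (SE 0.03) and 0.16 (SE 0.04), and both calls were lost under the table scalings.

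Desaturases and other genes of fatty acid synthesis rose with palmitate, and the synthase was not listed. Of 32 genes of fatty acid synthesis, elongation and desaturation, 13 rose, 1 fell and 18 were not listed, with a median of 0.22 and 8 called higher under either table scaling. Scd1, the enzyme that turns saturated into monounsaturated fatty acids (ENSMUSG00000037071, chromosome 19, 44394451 to 44407709), stood at 1234, 963, 1011, 1126 and 968 in untreated libraries and 2899, 2881, 2650.4, 2836 and 2808 with palmitate (log2 fold change 1.41 with SE 0.06, edgeR adjusted p = 1.16e-10). Each palmitate library held more than double the level of any untreated one. Fads2 and Fads1, the desaturases of polyunsaturated fatty acids, had log2 fold changes of 0.48 (SE 0.03) and 0.41 (SE 0.03), and Scd2 one of 0.40 (SE 0.03). Elovl6, which elongates palmitate, rose from 1789 ± 98.0 to 2113 ± 81.3 (log2 fold change 0.24 with SE 0.04, edgeR adjusted p = 0.000395), and Srebf1, the factor behind many of these genes, from 5513 ± 231 to 6616 ± 149 (log2 fold change 0.26 with SE 0.03, edgeR adjusted p = 7.74e-06). Fasn, the synthase, and Acaca, acetyl-CoA carboxylase, were not listed and had log2 fold changes of 0.03 and 0.08.

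Sterol genes rose by small amounts. Of 35 genes of cholesterol synthesis and uptake, 16 rose, none was called lower and 17 were not listed, with a median of 0.20; 9 were called higher and 1 lower under TMM over the table, 8 and 1 under DESeq2 size factors over it. Tm7sf2, a sterol reductase, had a log2 fold change of 0.41 (SE 0.03), and Insig1, which holds the SREBP factors in the ER, one of 0.26 (SE 0.03).

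A few lipid droplet genes rose. Of 35 genes of triglyceride synthesis, lipolysis and lipid droplets, 6 rose, 1 fell, 1 was listed without being called and 27 were not listed, with 3 higher and 2 lower under either table scaling. Hilpda, an inhibitor of the lipase ATGL, went from 578, 591, 676, 586 and 528 to 942, 843, 829, 679 and 732 (log2 fold change 0.44 with SE 0.08, edgeR adjusted p = 0.000985), and replicate 4 was the lowest with palmitate. Hsd17b13, a droplet protein of hepatocytes, rose from 212 ± 8.31 to 282 ± 27.5 (log2 fold change 0.41 with SE 0.08, edgeR adjusted p = 0.00141). Plin2, the main droplet coat of hepatocytes, changed by 0.42 (SE 0.02), and Dgat2, which makes the last step to triglyceride, was listed but not called, at -0.14 (SE 0.05); it was called lower under 5 of the alternatives. In the list of ceramide and sphingolipid metabolism, to which palmitate gives the backbone, 3 of 34 members rose and 3 fell, and 2 were called higher under TMM and 1 under DESeq2 size factors over the table. Sptlc1, a subunit of the enzyme that joins palmitoyl-CoA and serine, fell from 2282 ± 80.9 to 2010.0 ± 39.4 (log2 fold change -0.18 with SE 0.03, edgeR adjusted p = 0.000555), and Degs1, which makes ceramide, fell by 0.17 on the log2 scale. Sgms1, sphingomyelin synthase, rose by 0.27 (SE 0.04). Of 31 genes of phospholipid synthesis and remodelling, 1 rose and 2 fell, and none was called higher under either table scaling. In the triglyceride, ceramide and phospholipid lists, 20%, 17.6% and 9.68% of members were called, near or below the 14.6% of all genes tested.

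A glutathione transferase rose 18.5-fold from a very low level, and other redox genes rose too. Of 53 NRF2 targets, glutathione genes and redox enzymes, 20 rose, 5 fell, 1 was listed without being called and 27 were not listed, with a median of 0.13 and 9 called higher under either table scaling. Gsta1, an alpha-class glutathione transferase (ENSMUSG00000074183, chromosome 9, 78230656 to 78242684), stood at 6.33, 3.79, 19.4, 2.0 and 7.06 without palmitate and at 142, 157, 177, 119 and 130.0 with it (log2 fold change 4.21 with SE 0.27, edgeR adjusted p = 1.01e-08). The untreated libraries held few reads, and untreated replicate 3 was the highest of them. Gsta2, its near-identical neighbour, went from 6.60 ± 2.22 to 65.9 ± 13.5 (log2 fold change 3.32 with SE 0.24, edgeR adjusted p = 3.42e-08), so reads of the pair may be shared. Hmox1, which breaks down heme, rose from 1802, 1610.1, 1661, 1725 and 1762 to 2363, 2466, 2408, 2127 and 2188 (log2 fold change 0.43 with SE 0.04, edgeR adjusted p = 1.82e-06). Gclc, the catalytic subunit of the first step of glutathione synthesis, rose from 12544 ± 557 to 16290.0 ± 291 (log2 fold change 0.38 with SE 0.03, edgeR adjusted p = 9.13e-08), and Abcc2, the canalicular exporter of conjugates, had a log2 fold change of 0.76 (SE 0.05). Nfe2l2, the gene of NRF2, was not listed (0.07), nor were Nqo1 and Gclm. The antioxidant response element, TGACNNNGC on either strand, which can overlap an AP-1 site, was found in 45.0% of 20 promoters of called members and in 14% of all genes of the promoter table. It was also found in 50% of 8 promoters of called autophagy and lysosome genes.

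Of 38 targets of xenobiotic receptors and phase I and II enzymes, 7 rose and 1 fell. Cyp1a1, the classic target of the aryl hydrocarbon receptor (ENSMUSG00000032315, chromosome 9, 57687928 to 57703824), went from 16.3, 32.2, 19.4, 17.0 and 24.2 to 79.8, 87.4, 84.3, 61.1 and 71.2 (log2 fold change 1.81 with SE 0.18, edgeR adjusted p = 1.92e-06). Its level stayed low, near 1.04 FPKM with palmitate. The groups did not overlap, which the rule for the largest rises, where it stands, required. Cyp1b1, another target of that receptor, was called (log2 fold change 0.77, SE 0.23), yet its groups overlapped and 7 of the 10 fits without a library lost the call. Ugt2b34, a glucuronosyltransferase with close copies, had a log2 fold change of 0.60 (SE 0.07).

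Genes of the actin cytoskeleton fell together, and from levels above those of most listed genes. Of 34 genes of the actin cytoskeleton and SRF targets, 20 fell, none rose and 14 were not listed, with a median of -0.22 over the listed members. The groups did not overlap in 17 of the 20, against 70.1% of all listed genes. The table scalings lower all log2 fold changes, so a fall could hardly lose its call under them, and all 20 calls held there. Under TMM over genes listed in both comparisons of genotype, which raises them by 0.0090, 18 held. The promoters of the 2 fallen members of largest change that hold a CArG box, the site of SRF, are shown with the box in capitals, on the same build and window as above.
Cnn2 (chr10:79988350-79988649, plus strand): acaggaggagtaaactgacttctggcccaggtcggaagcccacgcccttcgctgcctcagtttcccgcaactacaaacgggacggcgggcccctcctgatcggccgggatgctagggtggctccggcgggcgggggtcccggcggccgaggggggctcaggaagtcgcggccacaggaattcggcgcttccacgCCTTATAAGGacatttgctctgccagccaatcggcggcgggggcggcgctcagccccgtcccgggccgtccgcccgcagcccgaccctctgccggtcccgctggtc
Fhl2 (chr1:43196712-43197011, minus strand): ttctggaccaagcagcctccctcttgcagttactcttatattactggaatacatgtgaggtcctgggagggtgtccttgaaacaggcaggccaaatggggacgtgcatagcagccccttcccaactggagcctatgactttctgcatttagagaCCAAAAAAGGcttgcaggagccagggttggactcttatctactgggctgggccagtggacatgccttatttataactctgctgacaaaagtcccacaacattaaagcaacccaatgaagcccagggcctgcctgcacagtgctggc
The box begins 56 bases before the start in Cnn2 and 96 bases before it in Fhl2. A CArG box on either strand was found in 29.4% of the 17 promoters of fallen members and in 1.81% of all genes of the promoter table.

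Csrp1, a LIM protein of actin bundles (ENSMUSG00000026421, chromosome 1, 135720061 to 135752232), had the largest fall of that list. It stood at 8091, 8407, 8447, 8554 and 9069 without palmitate and at 5836, 5483, 5601, 5711 and 5936 with it (log2 fold change -0.58 with SE 0.03, edgeR adjusted p = 3.17e-09). The spread within each group was small against the gap between them. Cnn2, calponin 2, which binds actin filaments, went from 4345, 4338, 4410.0, 4908 and 4951 to 3268, 2993, 3153, 3337 and 3553 (log2 fold change -0.49 with SE 0.05, edgeR adjusted p = 1.45e-06). Zyx, zyxin of focal adhesions, fell from 11530.2 ± 199 to 9157 ± 153 (log2 fold change -0.33 with SE 0.02, edgeR adjusted p = 2.45e-08), and Tpm1, a tropomyosin, from 21277 ± 708 to 17553 ± 407 (log2 fold change -0.28 with SE 0.03, edgeR adjusted p = 1.44e-06). Fhl2, a LIM cofactor of SRF, fell by 0.32 on the log2 scale. Actb, beta actin, among the most abundant RNAs, stood at 51719, 53347, 52850.2, 53049 and 53134 without palmitate and 48516, 46467, 48664, 48147 and 47863 with it (log2 fold change -0.14 with SE 0.02, edgeR adjusted p = 0.000443); the change was small, and every palmitate library was below every untreated one. Acta2, Tagln and Myl9, SRF targets of contractile cells, were not listed.

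Targets of YAP and TEAD moved both ways. Of 29, 8 fell, 4 rose and 17 were not listed. In all 12 that moved the groups did not overlap, against 70.1% of all listed genes. Under DESeq2 size factors over the table, 2 were called higher and 8 lower. Ankrd1, a nuclear ankyrin repeat protein and a common reporter of YAP (ENSMUSG00000024803, chromosome 19, 36111965 to 36119844), went from 9604, 9352, 9894, 8519 and 9624 to 6664, 5952, 6401, 5780.1 and 5543 (log2 fold change -0.63 with SE 0.05, edgeR adjusted p = 1.31e-07). Vgll3, a cofactor of TEAD, fell from 425 ± 50.7 to 241 ± 20.6 (log2 fold change -0.81 with SE 0.09, edgeR adjusted p = 3.19e-06), and F3, tissue factor, from 1219 ± 115 to 868 ± 32.9 (log2 fold change -0.49 with SE 0.06, edgeR adjusted p = 7.2e-06). Birc5, survivin, had the largest rise (log2 fold change 1.13, SE 0.11), and it is also a mitosis gene. Amotl2 was not listed (0.04), nor were Ccn1 and Ccn2, the other usual reporters. Of 26 integrins and cell-matrix receptors, 7 rose and 3 fell; 2 were called higher and 4 lower under either table scaling, and 3 to 7 were higher when 1 library was left out. Itga7, a laminin receptor subunit, rose from 235, 211, 214, 226 and 203 to 394, 355, 406, 376 and 382 (log2 fold change 0.81 with SE 0.07, edgeR adjusted p = 1.91e-07), while Itgb3, a receptor for vitronectin, fell from 1131 ± 64.5 to 898 ± 56.3 (log2 fold change -0.33 with SE 0.05, edgeR adjusted p = 0.000128). Of 44 matrix genes, 5 rose and 4 fell, with 3 higher under TMM and 2 under DESeq2 size factors over the table. Lamc1, a laminin chain, rose by 0.37 (SE 0.04), Col4a1, a basement membrane collagen, fell by 0.18, both on the log2 scale, and Fn1, fibronectin, was not listed.

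Of 43 genes of epithelial junctions and keratins, 6 fell and 3 rose. Krt8, of the keratin pair of hepatocytes, fell from 49977 ± 1952 to 42080.5 ± 1139 (log2 fold change -0.25 with SE 0.03, edgeR adjusted p = 1.44e-05), and its partner Krt18 fell by 0.16 on the log2 scale. Krt20, a keratin of gut epithelium, rose from 484, 411, 505, 502 and 513 to 839, 865, 863, 827 and 867 (log2 fold change 0.82 with SE 0.06, edgeR adjusted p = 2.18e-08), and its groups were far apart. Sprr1a, a small proline-rich protein of stressed epithelia, went from 32.5 ± 8.99 to 266 ± 48.9.

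Inflammatory genes divided, with adhesion molecules and an NF-kB subunit lower and the serum amyloid genes Saa1 and Saa2 higher. Of 42 genes of NF-kB signalling and the acute phase, 12 fell, 8 rose, 2 were listed without being called and 20 were not listed, with a median of -0.14; 5 were called higher and 13 lower under either table scaling. Icam1, an adhesion molecule that binds leukocytes (ENSMUSG00000037405, chromosome 9, 21015985 to 21028817), went from 1938, 2103, 2131, 2035 and 2264 to 1707, 1559, 1625, 1549.7 and 1527 (log2 fold change -0.39 with SE 0.04, edgeR adjusted p = 3.67e-06). All palmitate libraries were below the untreated ones. Vcam1, with a like role, fell from 5354 ± 317 to 4133 ± 74.7 (log2 fold change -0.37 with SE 0.04, edgeR adjusted p = 8.3e-07), and Nfkb1, the p50 subunit of NF-kB, from 8010.4 ± 221 to 6933 ± 106 (log2 fold change -0.21 with SE 0.03, edgeR adjusted p = 1.45e-05). Tnfaip3, the feedback inhibitor A20, was called lower (log2 fold change -0.30, SE 0.09), but 6 of the 10 fits without a library lost the call. Saa2, a serum amyloid A, stood at 50.6, 38.9, 62.0, 49.1 and 34.3 without palmitate and 85.1, 102, 86.2, 107 and 73.7 with it (log2 fold change 0.96 with SE 0.16, edgeR adjusted p = 0.000352). Saa1, its near-identical neighbour, had a log2 fold change of 0.72 (SE 0.16), so reads of the pair may be shared. Saa3, a far more abundant serum amyloid gene at 48247 in palmitate replicate 1, changed by only 0.16. Its call was lost under both table scalings.

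Several genes of antigen presentation fell, and few interferon genes were listed. Of 58 genes of the interferon response and antigen presentation, 10 fell, 2 rose and 46 were not listed, with a median of -0.26. Psmb10, a subunit of the immunoproteasome (ENSMUSG00000031897, chromosome 8, 105935735 to 105938444), went from 1376, 1559.9, 1705, 1567 and 1509 to 1226, 1226, 1284, 1139 and 1221 (log2 fold change -0.34 with SE 0.05, edgeR adjusted p = 0.000102), and the groups did not overlap. Tapbp, tapasin, which loads peptides on MHC class I, fell from 4918 ± 289 to 3972 ± 131 (log2 fold change -0.31 with SE 0.04, edgeR adjusted p = 1.35e-05). The GTPases Gbp2 and Gbp4, induced by interferon gamma, fell by 0.55 and 0.40 on the log2 scale. The members that rose were Rsad2, viperin, and Ifit2, both antiviral genes of the type I interferon response. Rsad2 stood at 0.904, 4.74, 0.969, 1.0 and 1.01 without palmitate and 28.7, 36.0, 30.7, 20.4 and 38.7 with it (log2 fold change 4.04 with SE 0.39, edgeR adjusted p = 9.11e-07), and the untreated group held only 9 reads in all, so its fold change is imprecise. Ifit2 rose by 0.33 (SE 0.09), a call lost under DESeq2 size factors over the table and in 3 of 10 fits without a library. Isg15, Ifit1 and Irf7 were not listed.

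Among secreted signals, a prostaglandin enzyme and stress cytokines rose. Of 34 genes of growth factors, cytokines and prostaglandin synthesis, 8 rose and 3 fell, and 6 were called higher and 5 lower under either table scaling. Ptgs2, cyclooxygenase 2 (ENSMUSG00000032487, chromosome 1, 150100031 to 150108227), went from 31.7, 42.7, 34.9, 30.1 and 21.2 to 234, 259, 249, 182 and 179.9 (log2 fold change 2.78 with SE 0.16, edgeR adjusted p = 4.91e-09), and palmitate replicates 4 and 5 were the lowest of their group. Gdf15, a stress cytokine, rose from 691, 686, 722, 789 and 733 to 1162, 1141, 1192, 1026 and 1158 (log2 fold change 0.65 with SE 0.05, edgeR adjusted p = 6.93e-08), and Vegfa, the endothelial growth factor, from 814 ± 21.8 to 1128 ± 45.6 (log2 fold change 0.47 with SE 0.04, edgeR adjusted p = 2.28e-07). Of 21 chemokines, 2 rose and 3 fell. Chemokines called lower numbered 4 under either table scaling and 1 to 4 when 1 library was left out, since Cxcl16 lost its call in 8 and Ccl7 in 5 of the 10 fits. Cxcl10, a chemokine for T cells, stood at 26.2, 19.9, 19.4, 24.0 and 26.2 without palmitate and 107, 103, 96.7, 72.6 and 53.7 with it (log2 fold change 1.91 with SE 0.20, edgeR adjusted p = 2.5e-06); palmitate replicates 4 and 5 were lowest but still above the untreated libraries. Cxcl2, a chemokine for neutrophils, rose by 0.60 (SE 0.13), with overlapping groups, and Ccl9 fell from 471 ± 13.1 to 198 ± 22.0. Fgf21, Il6, Areg and Ereg were not listed.

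Hepatocyte identity genes showed no common direction. Of 58 plasma protein genes, 6 rose and 5 fell. Alb rose from 231, 218, 218, 211 and 208 to 373, 374, 356, 381 and 417 (log2 fold change 0.80 with SE 0.07, edgeR adjusted p = 1.84e-07), whereas Ttr, far more abundant per length, fell from 13904 ± 1018 to 12028 ± 283 (log2 fold change -0.21 with SE 0.04, edgeR adjusted p = 0.00138). C3, complement component 3 and the most abundant of them per length at 997 FPKM untreated, fell by 0.17 on the log2 scale, with overlapping groups. Of 21 hepatocyte transcription factors, 2 rose and 2 fell, with none higher and 3 lower under either table scaling; Hnf4a and Cebpa were not listed.

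Among markers of other liver cells with values, endothelial and stellate ones were low, while Cd14 and several cholangiocyte markers were not. Markers without values are not shown to be low. The 2 of 15 endothelial markers with values summed to 0.628 to 0.723 FPKM without palmitate and 0.568 to 0.717 FPKM with it, and the 1 stellate marker with values, Des, stood at 0.0664 to 0.172 FPKM without palmitate and 0.075 to 0.149 FPKM with it. The 2 of 17 macrophage markers with values summed to 118 to 142 FPKM without palmitate and 152 to 171 FPKM with it. Nearly all of that was Cd14, which hepatocytes also express, and it rose by 0.26 (SE 0.04). Cd68, a lysosomal protein of macrophages that stood at 1.08 FPKM untreated, rose from 36.1 ± 4.90 to 63.2 ± 5.18 (log2 fold change 0.80 with SE 0.14, edgeR adjusted p = 0.000572). Ptprc, Adgre1 and Csf1r, which mark leukocytes, had no values in the tables used. Cholangiocyte markers with values, 7 of 15, summed to 762 to 789 FPKM without palmitate and 684 to 722 FPKM with it, mainly from Cd24a and Anxa4. Of those 15, 4 fell and 1 rose. Sox9, which marks bile duct cells, stood at 61.7 FPKM untreated and was not listed for palmitate (0.08). The part of other cell types in the changes above was not tested.

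Genes of p53 and cell death moved both ways. Of 21 genes of necroptosis and death receptor signalling, 2 fell and none rose, with 1 lower under TMM over genes listed in both comparisons of genotype. That is 9.52% of members called, below the 14.6% of all genes tested. The 2 were Birc3, an inhibitor of apoptosis, from 1857 ± 101 to 1591 ± 34.6 (log2 fold change -0.22 with SE 0.04, edgeR adjusted p = 0.00051), and Chmp2a, of membrane repair, by 0.11, a call lost in 9 of the 10 fits without a library. Ripk3, the kinase deleted in the other line, was not listed (log2 fold change 0.32), nor were Ripk1, Mlkl and Casp8. Of 36 p53 targets and apoptosis genes, 4 rose and 5 fell; under either table scaling 1 was higher and 5 lower, and 3 to 5 were lower when 1 library was left out. Mdm2, the ligase that degrades p53, rose from 4179 ± 168 to 4949 ± 111 (log2 fold change 0.24 with SE 0.03, edgeR adjusted p = 1.66e-05), while Bid and Bcl2l11, which promote cell death, fell by 0.21 and 0.22 on the log2 scale. Cdkn1a and Bax were not listed.

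Several smaller groups had some members called, against 14.6% of all genes tested. Among gluconeogenesis genes, heat shock genes and extracellular proteases, 9.38%, 15% and 10% of members were called, near or below that share. Among glycolysis, autophagy, TGF-beta and clock genes, 22.5%, 25.6%, 29.3% and 23.8% were. Of 40 genes of glycolysis, glucose transport and hypoxia, 8 rose and 1 fell, with 4 higher under either table scaling. Hk2, hexokinase 2, rose from 129, 140.3, 147, 139 and 145 to 202, 218, 198, 196 and 199 (log2 fold change 0.53 with SE 0.08, edgeR adjusted p = 0.000133), Pkm, pyruvate kinase, from 25319 ± 1016 to 33466 ± 739.9 (log2 fold change 0.40 with SE 0.03, edgeR adjusted p = 3.8e-08), and Slc2a1, the glucose carrier GLUT1, by 0.37 (SE 0.06) on the log2 scale. Of 32 genes of gluconeogenesis and amino acid catabolism, 2 rose, among them Pck2 (log2 fold change 0.33, SE 0.04), a mitochondrial enzyme, and 1 fell, with 1 higher under either table scaling. Of 43 autophagy and lysosome genes, 8 fell and 3 rose, with 2 higher under TMM and 1 under DESeq2 size factors over the table, and 5 to 7 lower when 1 library was left out. Map1lc3b, the LC3 protein of autophagosomes, fell from 6558 ± 237 to 5989 ± 128 (log2 fold change -0.13 with SE 0.03, edgeR adjusted p = 0.00386). Of 41 genes of TGF-beta, BMP and Wnt signalling, 8 rose and 4 fell, with 5 and 4 under either table scaling; Id1, a target of BMP signals, rose from 374, 321, 381, 311 and 268 to 683, 581, 630.3, 494 and 541 (log2 fold change 0.82 with SE 0.10, edgeR adjusted p = 1.31e-05), and Inhba, an activin subunit, by 0.71 (SE 0.10). Of 21 clock genes, 3 rose and 2 fell, led by Nr1d1, the repressor REV-ERB alpha (log2 fold change 0.48, SE 0.08). Clock genes called higher numbered 2 under TMM and 1 under DESeq2 size factors over the table, and 0 to 2 were lower when 1 library was left out. Of 20 heat shock genes and metallothioneins, 2 rose and 1 fell, led by Hspb1 (log2 fold change 0.31, SE 0.08), with 1 higher under either table scaling. Of 30 extracellular proteases and inhibitors, 3 rose, and Mmp13, a collagenase, was the only 1 that stayed called under either table scaling (log2 fold change 3.26, SE 0.21).

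Outside the lists, a few genes had large changes. Atp13a4, a transporter of the P5 ATPase family (ENSMUSG00000038094, chromosome 16, 29395853 to 29544864), stood at 2.71, 7.59, 11.6, 2.0 and 3.02 without palmitate and at 98.9, 128, 116, 85.8 and 78.7 with it (log2 fold change 4.2 with SE 0.28, edgeR adjusted p = 1.59e-08). The untreated libraries held few reads of it. The genes of this paragraph were taken from those whose groups do not overlap, so the gap between groups was a condition of naming. Capg, which caps actin filaments, went from 6.33, 4.74, 17.4, 8.02 and 9.07 to 68.1, 58.6, 59.4, 30.1 and 46.2 (log2 fold change 2.51 with SE 0.30, edgeR adjusted p = 1.18e-05), so it rose while the actin list fell. Procr, the receptor for protein C, went from 24.4, 22.8, 15.5, 17.0 and 33.3 to 76.6, 92.6, 89.1, 83.2 and 73.7 (log2 fold change 1.88 with SE 0.17, edgeR adjusted p = 5.74e-07), and Pif1, a DNA helicase, from 53.9 ± 11.9 to 161 ± 16.1 (log2 fold change 1.58 with SE 0.13, edgeR adjusted p = 2.19e-07). Among falls, Uts2b, a urotensin peptide, went from 1910.0, 1624, 1765, 2161 and 1984 to 1408, 1134, 1250.0, 1239 and 1259.6 (log2 fold change -0.59 with SE 0.07, edgeR adjusted p = 2.05e-05). H2-M2, a nonclassical MHC class I gene, fell from 431 ± 11.3 to 292 ± 11.2 (log2 fold change -0.56 with SE 0.06, edgeR adjusted p = 1.97e-06), and Fam43a from 654 ± 31.5 to 444 ± 32.6 (log2 fold change -0.56 with SE 0.06, edgeR adjusted p = 2.75e-06). Atxn1, ataxin 1, and Cntn4, contactin 4, fell by 0.57 and 0.73 on the log2 scale, and Clca3b and Spink4 by 0.50 and 0.56. Slc13a2os, which fell from 77.5 ± 12.2 to 39.3 ± 7.96, lies antisense to another gene, and with the strand setting unknown its reads cannot be told apart from that gene's.

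Promoter motifs were also counted over all genes that moved. The CHR letters were found in 21.4% of the 913 promoters of genes called higher, close to the 20.2% of all genes of the promoter table. Among the 666 of genes called lower the share was 14.1%. CCAAT boxes were found in 72.5% of the mitosis promoters, 52.5% of those of all genes called higher and 41.1% of all genes of the table. They were not particular to mitosis genes. The share was 100% of 8 called ER promoters, 75% of 12 cholesterol and 72.7% of 11 fatty acid synthesis promoters. Among 17 fallen actin promoters it was 52.9%, and among 16 called NF-kB and acute phase promoters 25%. No called actin promoter held the CHR letters, and none of the 25 called ATF4 promoters held a CArG box. Of 8 promoters of called YAP/TEAD targets, 37.5% held the TEAD letters GGAATG, against 16.6% of all genes of the table. The share was also 37.5% in 8 promoters of called autophagy and lysosome genes. A gene with several promoters in RefSeq counted as holding a motif if any of them did, and a match is a run of letters, not a bound site. Lists of a factor's known targets can hold its motif more often whatever palmitate does. Members that were not called were not compared.

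**Figure D5:**
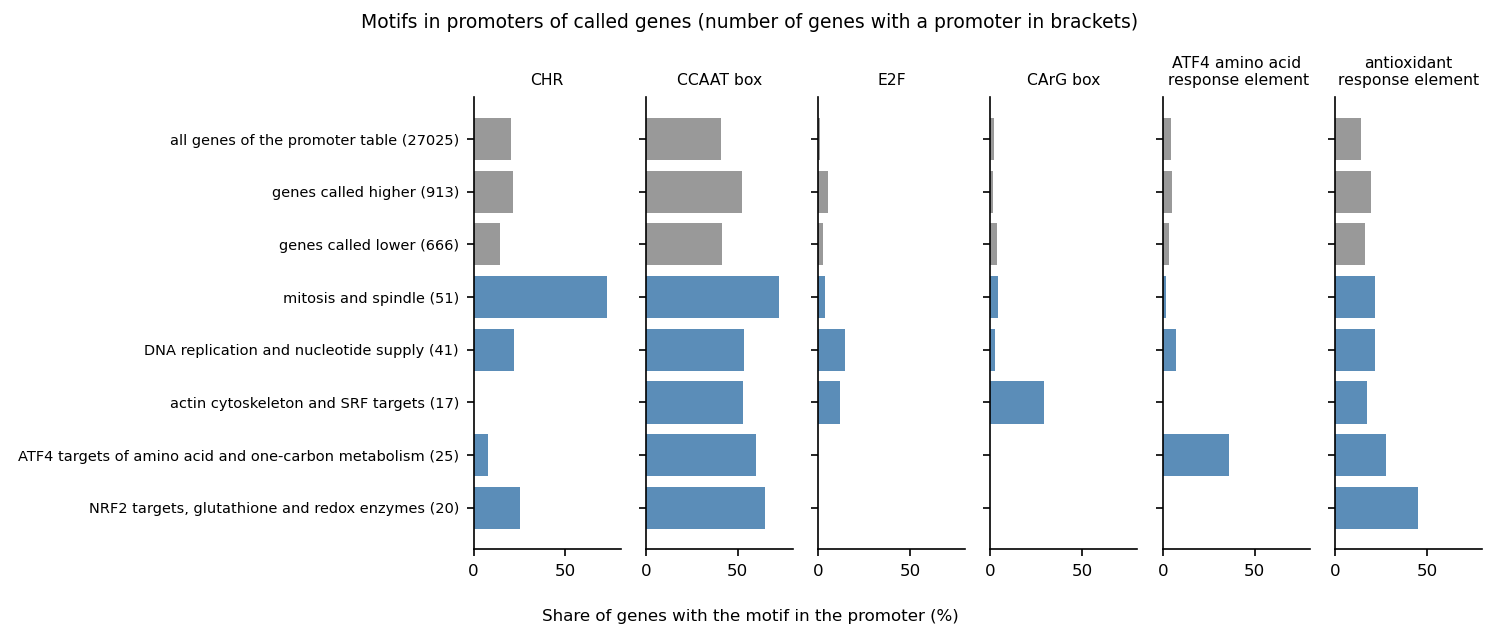
Share of genes whose RefSeq promoter, 250 bases before to 50 after the start, holds each of 6 motifs (horizontal axes, percent) among all genes of the promoter table and genes called in either direction (grey) and among called members of 5 lists (blue), with the number of genes with a promoter in brackets. The CHR is found in the mitosis list at 72.5%, the CArG box in the actin list at 29.4% and the ATF4 element in its list at 36.0%.

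The mitosis and actin genes that moved in wild-type cells are nearly all listed for Ripk3-/- cells as well, in a palmitate comparison that shares no library with the wild-type one. The authors' table for those cells lists 10.2% of 12871 genes tested. Of the 2016 genes called in wild-type cells, 957 are also listed there, which is 47.5% of the wild-type calls and 72.7% of the knockout list, and all 957 changed in the same direction. Of the 60 risen mitosis genes, 60 are listed in the knockout, and of the 20 fallen actin genes 19 are. Of the 11 ER genes that rose, 0 are listed there, and of the 18 risen immediate early genes 8 are. Cenpf had a log2 fold change of 1.46 (SE 0.09) in wild-type and 1.20 (SE 0.09) in knockout cells, Csrp1 of -0.58 (SE 0.03) and -0.57 (SE 0.05), and Slc7a11 of 2.30 (SE 0.09) and 1.67 (SE 0.11). A gene listed in one genotype alone is not shown to differ between them. edgeR's test of the difference, on 2993 genes with counts in all 20 libraries, called 0 genes, while DESeq2 called 6. In edgeR's test 172 genes had an unadjusted p under 0.05, which chance alone gives in about 1 of 20 tests. The smallest adjusted p of that test was 0.209. That smallest value belongs to Slc7a11, for which knockout minus wild-type was -0.64 (SE 0.15, edgeR adjusted p = 0.209) on the log2 scale. For Dusp4, Trib3 and Ptgs2 the same difference was -0.55 (SE 0.16, edgeR adjusted p = 0.567), -0.35 (SE 0.12, edgeR adjusted p = 0.588) and -0.90 (SE 0.28, edgeR adjusted p = 0.567). None of them was called. No fixed rule picked them from the 2993 genes, so their shared sign says nothing of the other genes.

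Repair, fat and adhesion pathways stood among the authors' own enriched terms, which they counted on their list of genes. Beside the cell cycle and DNA replication terms that head it, the authors' deposited table lists homologous recombination with 20 genes higher and 1 lower and an adjusted p of 7.24e-06, and the Fanconi anemia pathway with 21 higher and 0 lower. In the authors' deposited table, fatty acid metabolism has 20 genes higher and 5 lower, and fatty acid degradation 17 and 5. Focal adhesion has 30 genes lower and 22 higher in the authors' deposited table.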

How the data were processed

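RNA-seq libraries of AML-12 cells were sequenced with standard Illumina protocols, per the labels' protocols. The submitters' processing notes name FastQC 0.11.9, HISAT2, featureCounts 1.5.0-p3, DESeq2 and mm10; the sources used here give no annotation, strand setting or other version. Per the file headers, each deposited table holds raw read counts per gene and library, counts divided by the authors' size factors (a normalised signal), FPKM per library, and the authors' log2 fold changes and p-values.

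The members and lists were chosen with earlier results of these data known. The authors' tables list only genes that passed, so the number tested (13764) was recovered from the ratio of the authors' raw and adjusted p-values, and read totals from counts and FPKM. Counts of the 5 untreated and 5 palmitate libraries were tested with edgeR 4.0.16 (R 4.3.3; robust quasi-likelihood, the authors' size factors), with Benjamini-Hochberg adjustment over 13764 genes, where genes not listed count as tests but were not fitted. A called gene had therefore passed the authors' test too. DESeq2 1.42.0 gave an alternative. On simulated counts for the wild-type comparison (2174 genes) the edgeR step recovered 96% of genes changed by 0.5 and 100% of those changed by 1 on the log2 scale. That check adjusted over the 2174 genes alone and changed no genes of very low count. It is milder than the adjustment over 13764 genes, so the reported test may recover fewer. Named genes are the 15 largest rises and falls among called genes whose groups do not overlap, with a mean of at least 50 normalised counts in the higher group and without predicted genes and pseudogenes, the 6 largest called members of each list, and genes named for each list as well known; some of these are not reported here. Genotypes were compared on 2993 genes with counts in all 20 libraries, where the simulated check recovered 80% and 100%. Libraries of a group differed by more than counting noise (chi-square per degree of freedom 2.46 to 11.25 over 20 pairs), so each counted once. Columns of other samples numbered 0. Same-numbered libraries did not deviate together in all 5 pairs, so replicate numbers were not taken as pairs. Reads are not independent molecules, so counts carry more than counting error. Alternatives were other scalings, a filter on low counts, DESeq2, adjustment over the listed genes, a replicate block and leaving out each library. Promoters and motifs came from RefSeq (GRCm38.p6), matched by symbol, and motifs were searched on both strands with Python 3.11.15.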

Additional observations from a re-analysis of the deposited data

Results flagged for a closer look

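In each group of 5 libraries, a value was looked at again when the gap between the highest or lowest library and its nearest neighbour exceeded 0.71 of the whole range of the group, Dixon's critical value for 5. Chance flags about 1 in 20 groups, and 25 of 528 groups over the named genes met that rule, so their number is near what chance gives. The values are normalised counts.

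Among untreated libraries, replicate 1 stood apart for Mmp13 (42.5), replicate 2 for Cntn4 (68.3), Rsad2 (4.74), Krt20 (411) and Trf (1166), replicate 3 for Aurka (214) and Sqstm1 (27800.4), replicate 4 for Tm7sf2 (2163), Sptlc1 (2141) and Aspm (274), and replicate 5 for Dusp4 (559.6) and Abca1 (693). Among palmitate libraries, replicate 1 stood apart for Cpt1a (15784), Gla (1416), Pkm (34755), Acadl (7898), Mcm3 (2598) and Saa3 (48247). Replicate 2 did for Slc7a11 (968), Edn1 (216) and Hk2 (218), replicate 3 for Fads2 (7891), Casp6 (761) and Hmmr (668), and replicate 5 for Agpat5 (1003).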

How the results depend on the processing

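Under other scalings, genes called higher numbered 756 (TMM over the table) and 690 (DESeq2 size factors over the table) against 1156, and 1195 under TMM over genes listed in both comparisons of genotype, while genes called lower numbered 954, 954 and 721 against 860. DESeq2's own test called 1208 higher and 943 lower, a filter of at least 50 reads in 5 libraries 1077 and 839, and adjustment over the listed genes alone 1220 and 954. Leaving out 1 library in turn gave 947 to 1074 higher and 604 to 740 lower. The difference between genotypes had 0 calls, 6 with DESeq2's test, and 0 to 2 when 1 library was left out, with 2 only without untreated knockout replicate 1; the cause was not tested. Of 4479 values of named genes under these settings, 4151 kept their side of the threshold, 306 lost and 22 gained the call, and none changed direction. 57 named genes lost their call under at least 1 setting. Of 1394 list counts, 174 moved by more than 1.5 times. Leaving out 1 library moved, among others, the count of members called higher for fatty acid synthesis (8 to 12), triglyceride genes (3 to 6), NF-kB genes (5 to 8) and tRNA synthetases (1 to 3), and the count called lower for fatty acid oxidation (1 to 3), hepatocyte factors (0 to 2) and TGF-beta signalling (2 to 4).

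With the replicate number as a block, 1188 genes were called higher and 897 lower, and the difference between genotypes had 3 calls. Same-numbered wild-type libraries correlated in their deviations from the group means by 0.061, 0.058, 0.281, 0.20 and 0.307 over 2021 genes, and not every library correlated best with its own number, so the numbers were not taken to pair the libraries.

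The tables hold only genes that passed the authors' tests, so small changes of other genes could not be measured, and depth limits genes such as Rsad2 and Gsta1 whose untreated libraries held few reads.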

Other observations

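Palmitate replicates 4 and 5 were the lowest of their group for Fos, Fosb, Egr1, Ptgs2, Cxcl10 and Pdk4, which were named here after their values were seen. Untreated replicate 4 was the highest of its group for Cenpf, Ccnb1, Mcm5 and Rrm2. No cause of either was tested.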
